A study of Mus musculus with 44 samples.

Results

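Lung tumours grown from Lewis lung carcinoma cells in mice with a mutant *Timp2* gene (MT2) were compared with tumour-free lungs of the same genotype, across all genes. The comparison holds 10 of the 44 libraries of the series and 10 of the 30 of its intratracheal experiment, chosen by their sample titles alone. All 10 are lungs of strain C57BL6j labelled with the mutant *Timp2* genotype, whose nature the labels do not give. The tumour group (n = 5) received LL/2-Luc2 cells through the trachea and the vehicle HBSS, a balanced salt solution. LL/2 is a line established from a lung carcinoma of a C57BL mouse, and Luc2 is a luciferase reporter that its cells carry. The tumour-free group (n = 5) is labelled so in the treatment field, although its libraries also carry the cell-line label. Age, sex and the day of collection are not given in the labels used here. Each library came from a piece of lung of about 3 mm3 and polyA-selected RNA, and the labels do not state that each piece came from a separate mouse, so that p-values measure the spread between these samples, part of which may be technical.

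TIMP2, a protein that cells secrete, inhibits matrix metalloproteinases, the enzymes that cut collagens and other matrix proteins. It also binds MMP14 on the cell surface, and that complex takes part in the activation of MMP2. A lung tumour is a mixture of carcinoma cells, recruited macrophages, remodelled matrix and vessels, and it takes the place of alveoli and airways in a piece of tissue. The series compares lungs by *Timp2* genotype in the intratracheal model, and by rTIMP2 treatment in that model and in a subcutaneous one.

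The values are normalized counts, scaled by the authors. A value near 1 stands for about 1 read, and each library was made from an estimated 11.15 to 17.14 M (mega) reads. Group means are followed by their SD (n = 5), and log2 fold changes of tumour over tumour-free lungs by their standard error (SE), from limma on log2 of the value plus 1. This scale understates the change of genes with values near 0. Genes whose adjusted p (Benjamini-Hochberg, across the 16999 genes that entered the test) lay under 0.05 were called.

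A row named *Luc*, listed without a gene ID, was read as the reporter because its value was 0 in each of the 5 lungs without tumour. Its test is therefore no independent check of the groups. In the tumour lungs *Luc* was 60.3, 63.4, 57, 47.6 and 70.9 in replicates 1 to 5 (two-sided exact permutation p = 0.0079, the smallest that 5 against 5 libraries allow). *Hmga2*, a chromatin protein of embryonic and transformed cells, was 10.4, 9.52, 13.6, 12.7 and 14.1 in the tumour-free lungs and 2624, 4392, 5069.6, 3735 and 4324 in the tumour lungs (log2 8.25 ± 0.19, exact permutation p = 0.0079). Neither gene overlapped between the groups, and in *Hmga2* all 5 tumour lungs lay within a 2-fold range of each other. The labelled lung tissue was checked with *Sftpc*, *Scgb1a1*, *Ager*, *Cdh5* and *Pecam1*, which were all present in every library and lower in all 5 tumour lungs, with values given below.

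*Timp2* (chromosome 11, 118301069 to 118355741, minus strand, build mm10) is the mutated gene, and it was 6237, 5948, 6208, 5950.4 and 6184 in the tumour-free lungs, against 10316, 10546, 10598, 10147 and 11489 in tumour-free lungs of wild-type (WT) mice. The tumour lungs held 8697, 10259.8, 11992, 6582 and 6512. Every tumour lung was above every tumour-free lung, replicates 4 and 5 only slightly (log2 0.49 ± 0.18, limma adjusted p = 0.029). The call was lost when any 1 of replicates 2 to 5 of the tumour-free or 1 to 3 of the tumour lungs was left out, with adjusted p up to 0.069 and log2 values from 0.37 up. The values count reads of the whole gene from host and carcinoma cells alike, and the share of each cannot be told apart.

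The 5 tumour libraries were not alike, and their differences touch the results below. The summed levels of the alveolar and airway lists were lowest in replicate 1 and highest in replicate 5. *Sftpc*, the surfactant protein C gene, read 4598, 6542, 11249, 39572 and 97273 against 171137, 195966, 181556, 172352 and 184681 in the tumour-free lungs. Replicate 5 was also low in long genes. Among 14366 protein-coding genes with an exon length in GENCODE vM21, split into 4 equal groups by length, its median log2 difference from the other 4 tumour lungs was 0.795 in the group with the shortest exons and -0.504 in that with the longest. In the other 9 libraries the medians of these groups lay between -0.359 and 0.237. A list of adipose, muscle, liver and thymus genes stood in replicate 4 at 2575 percent of its summed tumour-free level, and between 8.61 and 68.8 percent in the other 4. Of 10 genes of the sex chromosomes 4 rose and 4 fell. *Ddx3y*, on the Y chromosome, was 1.9, 0.952, 2.72, 0.91 and 1.88 in the tumour-free lungs and 129.7, 123, 313, 395 and 525 in the tumour lungs, while *Xist*, the long RNA that coats the inactive X, was 6657, 5143, 4488, 5469 and 5104 in the tumour-free and 6173, 8305, 4875, 6227 and 1153 in the tumour lungs, lowest in replicate 5, and was not called. The sex of the host, of the carcinoma cells and the group cannot be told apart here. The sample numbers of the 2 groups also come from separate ranges, so a separate cohort or preparation and the group cannot be told apart either. The part of these differences in the results was not tested, and values without 1 library stand beside the main ones where the call or the size turns on it.

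**Figure D1:**
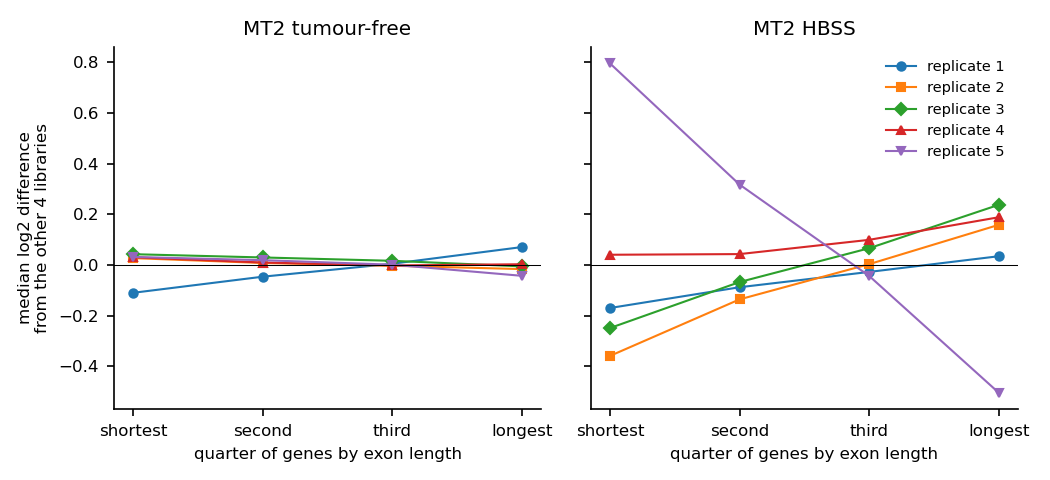
Median log2 difference of each library from the other 4 of its group (y axis) in 4 equal groups of protein-coding genes ordered by exon length (x axis), for the 5 tumour-free (left) and 5 tumour libraries (right). Replicate 5 of the tumour lungs runs from 0.795 in the shortest to -0.504 in the longest genes, while the other lines stay within 0.4 of 0.

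In all, 11457 genes (67.4%) were called, 5360 higher (31.5%) and 6097 lower (35.9%) in tumour lungs. Which direction led among these calls depended on the scaling. Rises led after quantile normalization (6630 higher and 5286 lower) and with libraries scaled to the same sum (5844 higher and 5660 lower). For 9860 genes (58.0%) the values of the groups did not overlap. A stricter rule, limma's treat, which asks for a change beyond 2-fold, called 1719 genes higher (10.1%) and 3286 lower (19.3%). The share of rises among the calls beyond 2-fold was 34.3%, and 47.3% after quantile normalization, which called 2469 higher and 2752 lower and moved the median log2 fold change of all genes from -0.05 to 0.15. Counts of gene lists below are to be read against these shares, and their medians against -0.05. The number of calls was 12778 without replicate 5 of the tumour lungs.

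**Figure D2:**
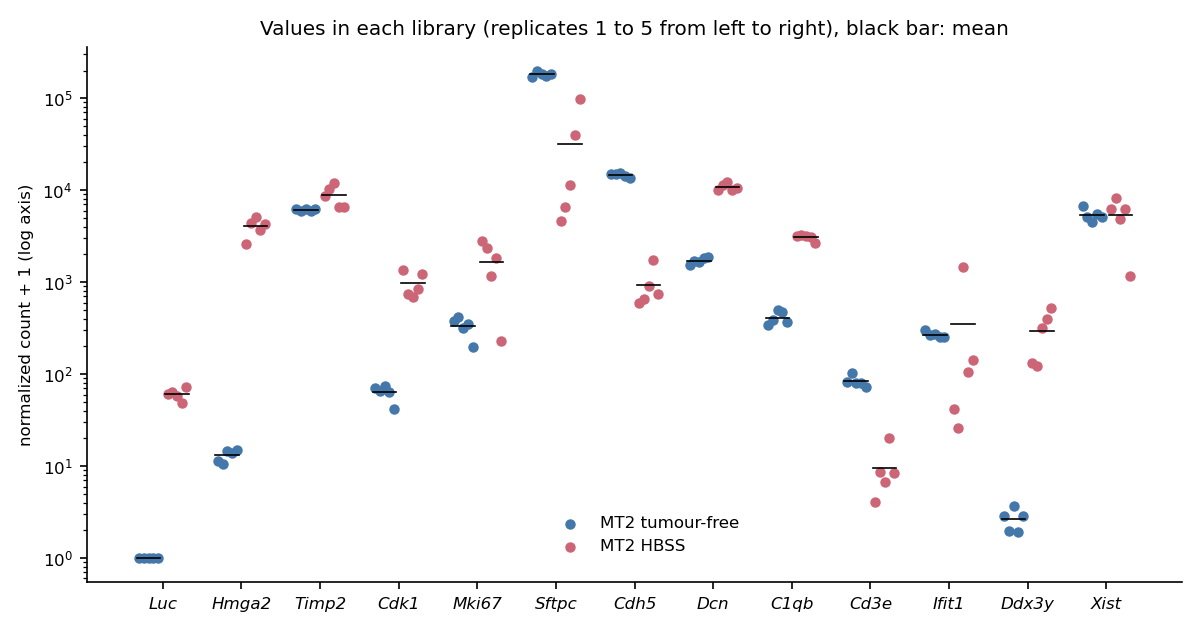
Normalized count plus 1 (log axis) of 13 genes in each of the 5 tumour-free (blue) and 5 tumour (red) MT2 lungs, replicates 1 to 5 from left to right, with black bars at the group means. *Hmga2*, *Cdk1*, *Dcn* and *C1qb* are high in all tumour lungs, *Sftpc*, *Cdh5* and *Cd3e* are low in all of them, and single libraries stand apart in *Mki67* and *Xist* (replicate 5) and *Ifit1* (replicate 3).

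The largest rises were genes with few or no reads in tumour-free lungs. *Rhox5*, a homeobox gene of the X chromosome known from the reproductive tract and from mouse tumour lines, was 3.79, 10.5, 15.4, 10 and 7.5 in tumour-free and 4176, 2662, 2398, 2848 and 3989 in tumour lungs (log2 8.34 ± 0.30). *Fosl1*, which encodes the AP-1 subunit Fra-1, reached 569.8, 657, 1007, 937 and 348 (log2 7.99 ± 0.45). The patterning genes *Osr2* (log2 7.27 ± 0.34) and *Dlx1* (log2 7.19 ± 0.42) and the RNA export factor gene *Nxf3* (log2 7.12 ± 0.45) were at most 15.4, 1.9 and 2.73 in tumour-free lungs and at least 923, 120.2 and 159.8 in tumour lungs. *Zic2*, a zinc-finger gene of the neural tube, was at 0 in 4 tumour-free lungs and 322, 333, 349, 211 and 159 in the tumour lungs. Of 26 candidates for carcinoma-cell transcripts 22 passed the filter, and of these 18 rose and 2 fell (median 3.57). A gene near 0 in tumour-free lungs passes only if its tumour values are high, so the filter favours rises in this list. The list was also chosen with earlier results of these data known. The falls were the cell cycle inhibitor gene *Cdkn2b* (-2.71) and the growth factor gene *Igf2* (-2.17).

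Genes of cell division rose almost without exception. Of 30 genes of mitosis and the cell cycle 29 rose and 1 fell (median 2.57), and 25 of the rises were beyond 2-fold. *Cdk1*, the kinase that drives entry into mitosis, was 70.2, 63.8, 73.5, 63.7 and 41.3 in tumour-free and 1371, 736, 680.3, 848 and 1225 in tumour lungs (log2 3.91 ± 0.23). *Plk1*, another mitotic kinase, went from 44.5 ± 17 to 515 ± 274 (log2 3.40 ± 0.39), and *E2f8*, a repressor of the E2F family, from 30.8 ± 4.75 to 540.4 ± 246 (log2 3.94 ± 0.34). *Mki67*, the Ki-67 gene, read 2795, 2324, 1166, 1809.6 and 229.5 against 373, 415, 319, 351 and 194, so that replicate 5 lay inside the tumour-free range and the others far above it (log2 1.97 ± 0.57, and 2.58 without it). *Mki67* has exons of 10061 bases and *Cdk1* of 4934. The mitotic genes *Top2a* (9013 bases) and *Kif11* (7461 bases) rose by 2.66 to 2.97 and 2.41 to 2.68 on the log2 scale with any 1 library left out. Whether exon length plays a part in the *Mki67* value of replicate 5 was not tested. The exception was *Ccnd1*, the cyclin of early G1 phase, which was lower in all 5 tumour lungs (2612 ± 332 against 4535 ± 230.3, log2 -0.80 ± 0.12). All 30 genes of DNA replication and repair rose (median 2.03), from *Mcm2* (log2 1.45 ± 0.15) and *Mcm3* (log2 1.61 ± 0.15) of the replicative helicase to the loading factor gene *Mcm10* (log2 3.01 ± 0.32) and the checkpoint kinase gene *Chek1* (log2 3.02 ± 0.29). All 20 genes of ribosome biogenesis rose as well (median 1.55). *Nop56*, a nucleolar protein of ribosomal RNA modification, was 2486, 2192, 2021, 2867 and 2932 in the tumour lungs against 409, 398, 377, 439 and 397, and *Npm1*, nucleophosmin, rose by 2.52 on the log2 scale.

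The promoters of these genes are shown because mitotic genes share known elements, a CCAAT box, which NF-Y binds, and the cell cycle genes homology region with the letters TTTGAA. Promoters were taken as the 250 bases before the start in RefSeq (GRCm38.p6), which gave one for 23 of the 30 mitotic genes tested. CCAAT, on either strand, was found in 18 of the 23 (78.3%) and TTTGAA in 7 (30.4%), against 36.1% and 11.1% of the 11789 tested genes with a promoter. None of the motifs contains another. Both stood in 7 of the 23 (30.4%) and in 4.22% of all. Windows of 120 bases that end near the start are printed for 4 called genes, on the strand of the gene, 5′ to 3′, with each CCAAT or TTTGAA in capitals (ATTGG and TTCAAA on the other strand).
Cdk1 (chr10:69352913-69353032, minus strand): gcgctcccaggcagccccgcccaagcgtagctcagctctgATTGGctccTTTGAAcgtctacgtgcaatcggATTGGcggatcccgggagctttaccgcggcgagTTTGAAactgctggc
Top2a (chr11:99024190-99024309, minus strand): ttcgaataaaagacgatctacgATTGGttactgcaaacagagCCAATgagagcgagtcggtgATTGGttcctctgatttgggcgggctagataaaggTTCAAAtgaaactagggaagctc
Kif11 (chr19:37376262-37376381, plus strand): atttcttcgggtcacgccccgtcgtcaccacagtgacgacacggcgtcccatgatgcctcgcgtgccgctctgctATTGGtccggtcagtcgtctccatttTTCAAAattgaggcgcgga
E2f8 (chr7:48881597-48881716, minus strand): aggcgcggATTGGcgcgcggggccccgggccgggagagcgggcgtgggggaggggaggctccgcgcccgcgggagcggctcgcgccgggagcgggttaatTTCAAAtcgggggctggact
The *Cdk1* window holds 2 copies of each motif, and the *Top2a* window holds CCAAT 3 times. The printed windows do not stand for all mitotic genes with both motifs. In another such gene, not printed, the last TTTGAA lay 161 bases before the start and its window held no CCAAT. *Top2a*, the topoisomerase gene, rose by 2.83 ± 0.26 and *Kif11*, a spindle motor gene, by 2.54 ± 0.21 on the log2 scale, 2 genes that were chosen for their promoters after their values were seen. Over all genes that rose beyond 2-fold the shares were closer to the background, with CCAAT in 40.7% and TTTGAA in 13.9% of 987, and among genes that fell beyond 2-fold they were 31.1% and 11.2% of 2348. The AP-1 letters TGANTCA stood in 4.86% of the first group, 5.54% of the second and 4.64% of all. These letters are a description of sequence and do not show binding.

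Energy metabolism changed in part. Of 28 genes of glycolysis and the hypoxia response 17 rose and 5 fell (median 1.04). *Egln3*, a prolyl hydroxylase that hypoxia induces, was 25.6, 24.7, 25.4, 39.1 and 61.9 in tumour-free and 1014, 1249, 2872, 920.0 and 997 in tumour lungs (log2 5.23 ± 0.35), and *Gapdh* rose with no overlap (668 ± 69.4 to 4049 ± 677, log2 2.59 ± 0.14). The glucose transporter gene *Slc2a1* was 1256, 1114, 5229, 1403 and 1753, with replicate 3 far above the other 4 (log2 2.17 ± 0.36). The lactate exporter gene *Slc16a3* had a log2 value of 0.06 ± 0.23 and was not called. *Vegfa*, the main growth factor of endothelium and in normal lung a product of alveolar epithelium, fell from 12335 ± 846 to 441, 496, 1352, 2354 and 1795 (log2 -3.56 ± 0.42), and *Pfkfb3*, a regulator of glycolysis, fell by 1.89 on the log2 scale. The letters ACGTG, the core of the hypoxia response element, stood in the promoters of 14 of the 27 listed genes that had one (51.9%), against 21.1% of all tested genes. The share was also high in mitotic genes (9 of 23, 39.1%) but not in genes of DNA replication and repair (13.6%). It was 22% among genes that rose beyond 2-fold and 15.4% among those that fell beyond 2-fold. Genes of oxidative phosphorylation had 14 of 22 higher and 2 lower (median 0.63), none higher beyond 2-fold, with *Cox5b* at 1.40 ± 0.18 and *Sdha* at -0.62 ± 0.12. Of 19 genes of the amino acid stress response, including that of its transcription factor ATF4, 13 rose. Among them were *Phgdh*, the first enzyme of serine synthesis (log2 3.41 ± 0.23), and the amino acid transporter gene *Slc7a5* (log2 3.00 ± 0.22). Only 1 of the 19, the lipoprotein receptor gene *Vldlr*, fell (-2.18). Without replicate 5, 3 genes of this list fell. Genes of cholesterol synthesis had 9 of 17 lower and none higher (median -0.37), and chaperones of the endoplasmic reticulum had 6 of 20 higher and 3 lower (median 0.03), or 7 and 6 without replicate 5.

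Genes of alveoli and airways fell throughout. All 14 markers of alveolar type 2 cells (median -3.46), all 13 of type 1 cells (-3.43), all 15 of club and other secretory cells (-3.96) and all 14 of ciliated cells (-3.73) were lower in tumour lungs. In a bulk sample fewer cells of a type and less RNA per cell cannot be told apart. *Sftpc* changed by -3.44 ± 0.70 on the log2 scale, or -4.07 without replicate 5, and the sum of the type 2 list stood at 2.73, 4.48, 8.29, 21.4 and 40.8 percent of its tumour-free mean in replicates 1 to 5. *Hc*, complement component C5, made in the lung by type 2 cells, fell from 8032 ± 1217 to 276 ± 256 (log2 -5.26 ± 0.46). *Ager*, a receptor of type 1 cells, was 707, 676, 2959, 5300.4 and 8209.7 against 26882, 29213, 28052, 29797 and 30328 (log2 -3.66 ± 0.63). *Scgb1a1*, the secretoglobin of club cells, was 3313, 4489, 19525, 38225 and 121338, all below the tumour-free range of 269816 to 300225 (log2 -4.09 ± 0.82, -4.80 without replicate 5 and -3.51 without replicate 1). The club cell monooxygenase gene *Cyp2f2* (log2 -5.49 ± 0.66), the cilia master regulator gene *Foxj1* (log2 -3.85 ± 0.66) and the axonemal dynein gene *Dnah5* (log2 -5.54 ± 0.41) fell too. *Cdh1*, E-cadherin of all epithelia, fell from 5167 ± 164 to 71.5, 139, 374, 551 and 415 (log2 -4.40 ± 0.47). Of 14 genes of basal and squamous epithelium only 6 passed the filter, and of these 3 fell and none rose. With 1 library left out, 2 to 4 fell.

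**Figure D3:**
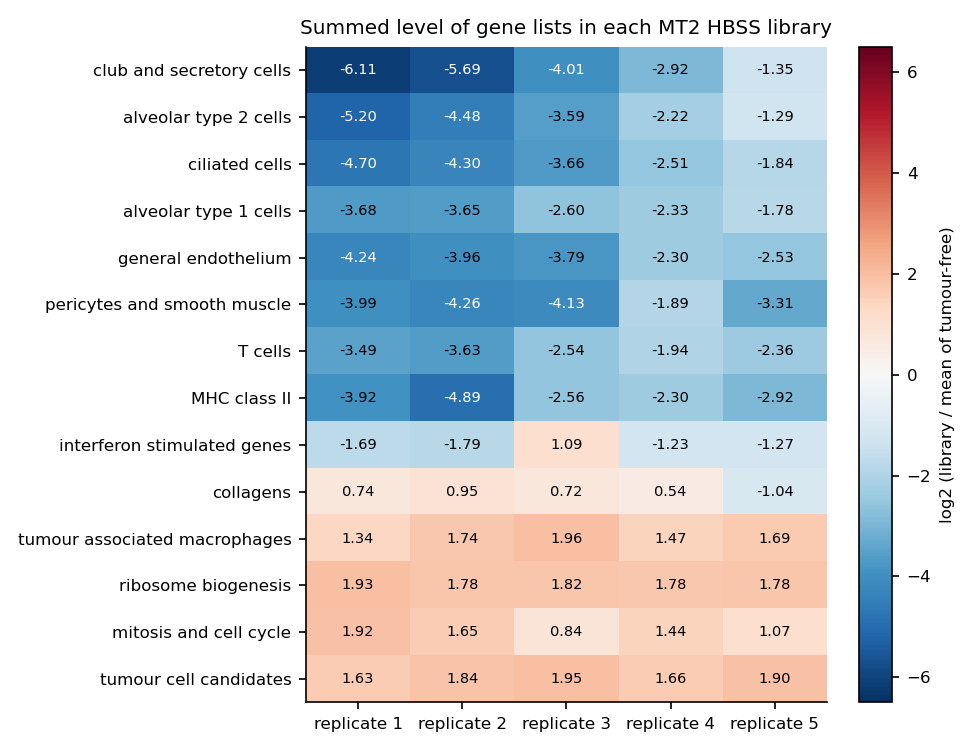
Log2 ratio of the summed level of 14 gene lists in each tumour library (columns, replicates 1 to 5) to the mean of the 5 tumour-free MT2 lungs, blue below and red above 0. The 4 epithelial lists at the top are darkest in replicate 1 and palest in replicate 5, interferon stimulated genes are above 0 in replicate 3 alone, collagens are below 0 in replicate 5 alone, and the 4 lists at the bottom are above 0 in every library.

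Vessel genes fell as well. All 19 general markers of endothelium (median -3.28), all 15 of lung capillaries (-3.62) and 16 of 17 of veins, arteries and lymphatics (-3.22) were lower. *Cdh5*, the cadherin of endothelial junctions, was 15009, 15050.0, 15231, 14348 and 13718 in tumour-free and 588, 649, 912, 1756 and 735 in tumour lungs, highest in replicate 4 (log2 -4.10 ± 0.26). *Pecam1* changed by -3.55 ± 0.31, the VEGF receptor gene *Kdr* by -4.87 ± 0.30 and the angiopoietin receptor gene *Tek* by -4.51 ± 0.41. *Car4*, carbonic anhydrase 4 of aerocytes, the thin capillary cells of gas exchange, read 17.4, 14, 57, 291 and 490.0 against 1768 to 2073 (log2 -4.69 ± 0.86, -5.37 without replicate 5). Of 17 genes linked to vessel sprouting 12 fell and 2 rose. The falls included the apelin receptor gene *Aplnr* (log2 -4.87 ± 0.53) and *Pdgfb*, by which endothelium attracts pericytes (-3.71), and the rises were the growth factor gene *Vegfb* (log2 0.86 ± 0.19) and the netrin receptor gene *Unc5b* (log2 0.71 ± 0.23), the latter not called with all 6 intratracheal groups in 1 fit (limma adjusted p = 0.08). Of 17 genes of pericytes and smooth muscle 16 fell and 1 rose (median -3.61), from the contractile genes *Cnn1* (log2 -4.98 ± 0.50) and *Synm* (log2 -5.15 ± 0.43) to the rise of *Rgs5* (log2 0.77 ± 0.27), a signalling regulator of pericytes. *Rgs5* lost its call without tumour-free replicate 5 or without any 1 of tumour replicates 1, 2 and 4 (log2 0.63 to 0.71, limma adjusted p up to 0.06), and with all 6 intratracheal groups in 1 fit (limma adjusted p = 0.091).

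Cardiac muscle is carried into mouse lung samples by the sleeves of the pulmonary veins, and 10 of its 12 genes fell (median -3.76). *Actc1*, cardiac actin, was 1537, 1975, 1358, 2409.7 and 2469 in tumour-free and 29.6, 18.3, 17.4, 155 and 38.4 in tumour lungs, highest in replicate 4. Of 10 genes of mesothelium, the lining of the lung surface, 7 fell and 1 rose (median -3.24).

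Stromal genes split. Of 19 genes of alveolar and adventitial fibroblasts 14 fell and 2 rose (median -2.99). The alveolar fibroblast genes *Tcf21* (log2 -5.11 ± 0.72), *Itga8* (log2 -5.66 ± 0.51) and *Col13a1* (log2 -5.68 ± 0.52) fell, the last from 939 ± 51.7 to 7.15, 5.38, 19.3, 57.1 and 32.6. The small leucine-rich proteoglycan genes *Dcn*, decorin, and *Lum*, lumican, rose. *Dcn* was 1529, 1711, 1648, 1835 and 1856 in tumour-free and 9967, 11259, 12199.5, 10107 and 10650.5 in tumour lungs, a narrow range in both (log2 2.66 ± 0.11), and *Lum* was 2205, 4047, 4731, 3456 and 6596 against 152 ± 25.3 (log2 4.71 ± 0.25). Among 17 genes of activated fibroblasts 7 rose and 9 fell. *Lrrc15*, a membrane protein of activated stroma and of some mesenchymal tumour cells, was 506, 230.1, 507, 531 and 293 in tumour lungs and under 10 in every tumour-free lung (log2 5.96 ± 0.38), and *Spp1*, osteopontin, was 9864, 10854, 13288, 10214 and 32005 against 791 ± 191 (log2 4.13 ± 0.31). The contractile genes *Acta2* (log2 -3.61 ± 0.37) and *Tagln* (log2 -3.54 ± 0.44), which smooth muscle shares, and *Postn*, periostin (log2 -4.55 ± 0.36), fell.

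Collagens did not move as one. Of 23 tested 7 rose and 13 fell (median -1.58), and 9 rose without replicate 5. The chains of collagen I fell, *Col1a1* to 2915, 1603, 1039, 3019.8 and 291 from 8492, 7546, 8026, 5792 and 8519 (log2 -2.51 ± 0.54) and *Col1a2* to 1444, 329, 423, 1587 and 302 from 9494, 8605, 9012, 7027 and 9095 (log2 -3.78 ± 0.46). The 2 chains are normally made in a fixed proportion, and the value of *Col1a1* over that of *Col1a2* was 0.824 to 0.937 in tumour-free lungs and 2.02, 4.87, 2.45, 1.9 and 0.964 in tumour lungs. *Col3a1*, collagen III, rose in all 5 tumour lungs (77725, 94710.0, 67387, 58727 and 19061 against 11792, 11617, 11558, 6608 and 10782, log2 2.45 ± 0.38), least in replicate 5, so that its value over that of *Col1a1* was 1.14 to 1.54 in tumour-free and 19.4 to 65.4 in tumour lungs. *Col18a1*, the source of endostatin (log2 2.88 ± 0.20), and *Col7a1*, of anchoring fibrils (log2 2.62 ± 0.37), also rose, and *Col4a5* of basement membranes (-4.64) and *Col12a1* (-3.92) fell. *Col3a1* was named after its values were seen.

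Other matrix genes split as well. Among 19 collagen-modifying and elastic fibre genes 5 rose and 8 fell, with the lysyl oxidase-like gene *Loxl3* (log2 2.86 ± 0.23) and the prolyl hydroxylase gene *P4ha3* (log2 2.68 ± 0.35) higher and *Loxl1* (log2 -4.26 ± 0.37) and the microfibril gene *Mfap4* (log2 -4.41 ± 0.32) lower. *Serpinh1*, the collagen chaperone HSP47, was 5601, 5661, 5711, 5614 and 6054 in tumour-free and 6572, 6786, 6032, 6195 and 6781 in tumour lungs and was not called (log2 0.18 ± 0.10, limma adjusted p = 0.15). Of 18 matricellular and glycoprotein genes 8 rose and 6 fell (median 0.58). *Thbs2*, thrombospondin 2, was 52.1, 55.2, 54.4, 65.5 and 76 in tumour-free and 2397, 6596, 6385, 4828 and 3067 in tumour lungs (log2 6.14 ± 0.27), and *Vcan*, the proteoglycan versican, was 5799, 7375, 8690.5, 4802 and 1997 against 152 ± 13 (log2 5.08 ± 0.33). *Fn1*, fibronectin, was 29628, 47879, 47680.3, 28164 and 9697, with replicate 5 just above the tumour-free range of 5977 to 7876 (log2 2.02 ± 0.37, and 2.40 without replicate 5). Basement membrane genes were mostly lower, 10 of 14 laminins and nidogens, led by *Lama3* of epithelial laminin (log2 -5.30 ± 0.31), with *Nid1*, nidogen 1, higher (log2 1.08 ± 0.35). The laminin chain gene *Lamb1* was also higher (log2 0.58 ± 0.24), and that call was lost in 9 of 10 fits that left out 1 library (every one but that without replicate 5, log2 0.42 to 0.61) and in 5 of 11 other settings (adjusted p up to 0.089). Of 21 integrin genes 16 fell and 3 rose, *Itga8* furthest down and *Itgam* of myeloid cells (log2 1.76 ± 0.16) and the fibronectin receptor gene *Itga5* (log2 1.27 ± 0.21) upward. The partner chains of the integrin that TIMP2 binds, *Itga3* (log2 -1.74 ± 0.19) and *Itgb1* (log2 -0.48 ± 0.15), were among those that fell, and both were named after their values were seen.

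The inhibitors of metalloproteinases moved in opposite directions. *Timp1*, the member that injury and growth signals induce, was 55, 80, 77.1, 51.9 and 64.7 in tumour-free and 274, 186, 247, 312 and 536 in tumour lungs (log2 2.15 ± 0.26). *Timp3*, which is bound to the matrix, fell to 517, 708, 2881, 4413 and 4685 from 13128 to 15913 (log2 -3.01 ± 0.58). *Reck*, a membrane-anchored inhibitor, fell from 1408 ± 111 to 117 ± 55.4 (log2 -3.69 ± 0.25). *Timp4* was low throughout, 34.1, 31.4, 31.7, 31.8 and 30 in tumour-free and 3.06, 7.53, 4.83, 35.2 and 21.7 in tumour lungs, and its groups overlapped (log2 -1.57 ± 0.54). Its call was lost without tumour replicate 1 (-1.21) or 3 (-1.34) and after quantile normalization (-0.64), and it was named after its values were seen.

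Of 15 matrix metalloproteinase genes 3 rose and 7 fell (median -0.32). *Mmp14*, the membrane-type enzyme that TIMP2 binds, was 989, 1162, 1186, 884 and 962 in tumour-free and 5701, 9776, 8393, 5293 and 3705 in tumour lungs (log2 2.59 ± 0.24). *Mmp2*, the gelatinase that MMP14 activates together with TIMP2, went the other way, to 155, 62.4, 169, 256 and 98.5 from 1597 to 2575 (log2 -4.04 ± 0.32). The 3 genes of this activation system had log2 fold changes of 2.59 for *Mmp14*, -4.04 for *Mmp2* and 0.49 for *Timp2*. *Mmp15*, another membrane-type enzyme, fell most (log2 -4.93 ± 0.41), the macrophage elastase gene *Mmp12* rose (log2 2.03 ± 0.41), and the gelatinase gene *Mmp9* was not called (log2 0.13 ± 0.30). Among 20 ADAM and ADAMTS genes 4 rose and 11 fell. *Adamts14*, a procollagen peptidase, was 1686, 1950.1, 1412, 1613 and 787 in tumour lungs against 65.8 ± 5.87 (log2 4.42 ± 0.22), *Adamts4* rose by 2.06 and *Adam8* by 1.78 on the log2 scale, and *Adamts8* fell (log2 -4.99 ± 0.46). In the plasminogen system and the cathepsins 6 of 15 rose and 3 fell. *Plau*, urokinase, rose (212 ± 15.8 to 1211 ± 534, log2 2.40 ± 0.25), its receptor gene *Plaur* was not called (log2 0.37 ± 0.26) except without tumour replicate 1 (0.57), the lysosomal protease gene *Ctsl* was 10624, 11352, 17523, 10813 and 27226 against 2582 ± 127 (log2 2.48 ± 0.24), and the protease inhibitor gene *Serpine2* fell (log2 -3.31 ± 0.42).

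**Figure D4:**
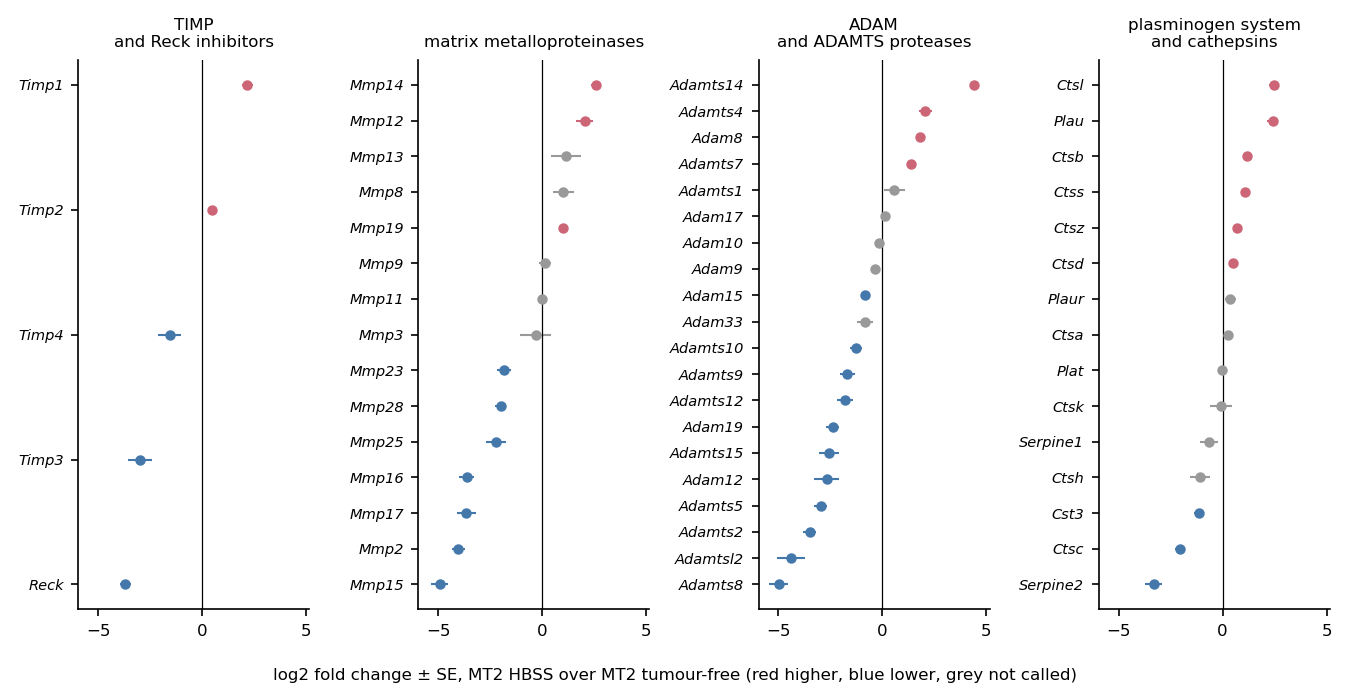
Log2 fold change with its SE (x axis) of each tested gene of 4 lists in MT2 tumour over MT2 tumour-free lungs, red for called higher, blue for called lower and grey for not called. *Timp1*, *Mmp14*, *Adamts14*, *Ctsl* and *Plau* lie to the right, and *Reck*, *Mmp15*, *Adamts8* and *Serpine2* at the far left.

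Of 18 genes of the epithelial to mesenchymal transition 6 rose and 11 fell. *Twist1*, a transcription factor of mesenchyme, was under 9 in every tumour-free lung and 998, 794, 936, 888 and 784 in the tumour lungs, all within a narrow range (log2 6.68 ± 0.16, limma adjusted p = 9.3e-10). *S100a4* was 7478, 5160.0, 7426, 4878 and 10655 against 159 ± 35.3 (log2 5.44 ± 0.23). The falls were led by the epithelial junction genes *Cdh1* and *Cldn7* (-3.81, or -4.40 without replicate 5). *Wnt7b* (log2 2.67 ± 0.22) was the only gene of 22 in the Wnt, Notch, Hedgehog and Hippo list that rose, against 18 that fell, with *Wnt2* of lung fibroblasts (-4.24) and *Shh* of epithelium (-4.18) among them. In the list of BMP, TGF-beta and receptor kinase genes 18 of 24 fell and 3 rose, *Fgfr1* most (1431 ± 127 to 8934 ± 3602, log2 2.56 ± 0.22).

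**Figure D5:**
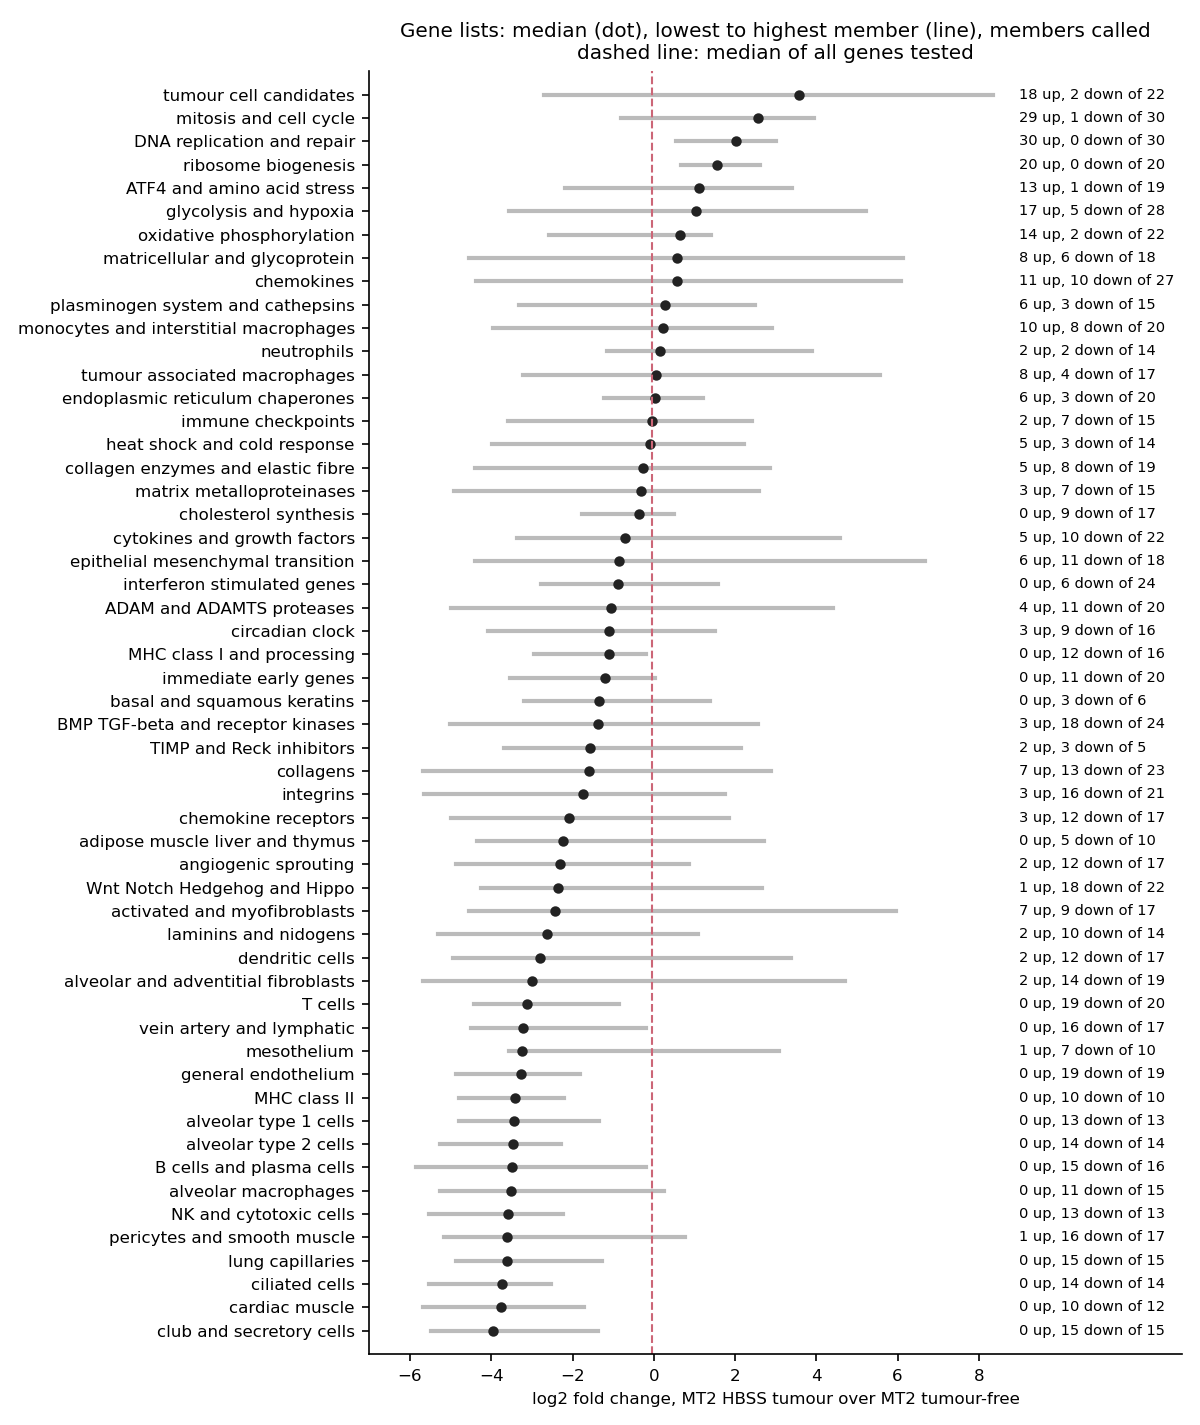
Median (dot) and range (line) of the log2 fold changes of the tested members of each gene list with at least 5 tested genes (y axis, ordered by median), with the number of members called higher (up) and lower (down) on the right, and the median of all genes tested as a dashed line. Candidates for tumour transcripts, proliferation and ribosome lists lie at the top, and epithelial, vascular and lymphocyte lists at the bottom.

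Myeloid genes changed by cell type. Of 15 genes of alveolar macrophages, the resident cells of the airspace, 11 fell and none rose (median -3.51), with *Siglecf* at 4.09, 2.15, 2.9, 5.71 and 40.1 against 279, 267, 261, 264 and 273 (log2 -5.26 ± 0.58, -5.90 without replicate 5). Of 17 genes of tumour-associated macrophages 8 rose and 4 fell, or 6 fell without tumour replicate 3 or 5. *Arg1*, arginase 1, was 34.1, 39, 27.2, 37.3 and 37.5 in tumour-free and 1698, 1378, 1278, 1746 and 2600.0 in tumour lungs (log2 5.56 ± 0.20). The scavenger receptor gene *Msr1* (log2 3.79 ± 0.21) and the lipid receptor gene *Trem2* (log2 3.55 ± 0.15), both named after their values were seen, rose with no overlap, and the T cell attractant gene *Ccl22* fell (log2 -3.22 ± 0.45). Of 20 genes of monocytes and interstitial macrophages 10 rose and 8 fell. The complement genes *C1qb* (412 ± 69.8 to 3082 ± 232, log2 2.91 ± 0.13) and *C1qc* (log2 2.85 ± 0.17) rose evenly in all 5 lungs, and *Ace*, which lung capillaries also express, fell (log2 -3.95 ± 0.42). Neutrophil genes were mixed, with 2 of 14 higher and 2 lower (5 higher without tumour replicate 1, 3 lower without tumour replicate 4 or 5). The rises were the decoy receptor gene *Il1r2* (log2 3.89 ± 0.53) and *Clec4d* (log2 3.60 ± 0.45), and the granule gene *S100a8* was not called (132, 154, 211, 682 and 203 in tumour-free and 109, 163, 1041, 362 and 921 in tumour lungs). Of 17 dendritic cell genes 12 fell and 2 rose. *Xcr1*, of the cells that cross-present antigen, was 35.1, 57.1, 78.9, 50 and 61 in tumour-free and 0, 0, 0.966, 9.51 and 0.835 in tumour lungs, and *Siglech*, of plasmacytoid cells, was 40 to 59.9 in tumour-free lungs and at 0 in all tumour lungs but replicate 4, where it was 8.56. The largest rise of that list was *Fscn1* (log2 3.37 ± 0.25), an actin-bundling protein that carcinoma cells also make. Of 4 tested genes of mast cells, basophils and eosinophils 3 fell.

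Lymphocyte genes fell. Of 20 T cell genes 19 were lower and none higher (median -3.13), and all 13 of natural killer and cytotoxic cells (-3.58) and 15 of 16 of B and plasma cells (-3.48) were lower. *Cd3e* of the T cell receptor complex was 80.6, 101, 79.8, 78.3 and 71.3 in tumour-free and 3.06, 7.53, 5.8, 19 and 7.51 in tumour lungs (log2 -3.31 ± 0.37). The granzyme gene *Gzma* was 3.06, 6.45, 0, 5.71 and 8.35 against 215 ± 48.9 (log2 -5.54 ± 0.54). These tumour levels stand for few reads a library, which limits the precision of the fold changes. All 10 genes of MHC class II presentation fell (median -3.42), with *Ciita*, their master activator, at 15.3, 12.9, 24.2, 40 and 25 against 511, 524, 635, 679 and 405 (log2 -4.58 ± 0.29) and *H2-Aa* at 366, 174, 1263, 1304 and 719 against 5277 ± 1046 (log2 -3.12 ± 0.49). Of 16 genes of MHC class I and its peptide supply 12 fell and none rose (median -1.11), and all 16 fell without replicate 5, with *H2-K1* at -1.65 ± 0.31 and the immunoproteasome gene *Psmb9* at -2.13. Class I genes are near-identical copies whose reads the counting could split.

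Interferon stimulated genes depended on 1 library. *Ifit1* was 299, 263, 270.2, 250.2 and 254 in tumour-free lungs and 40.9, 24.7, 1455, 104 and 141 in tumour lungs, below the tumour-free range in 4 libraries and far above it in replicate 3. *Isg15* had the same order, at 41.9, 24.7, 549, 77.1 and 97.7 against 141 to 164. Neither was called with all libraries, and both fell without replicate 3 (-2.08 for *Ifit1* and -1.47 for *Isg15*). In all, 6 of 24 genes fell and none rose (median -0.88), 21 fell without replicate 3 and 4 without replicate 5. *Ifih1*, a sensor of viral RNA, was among the 6 (log2 -2.76 ± 0.42).

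Chemokine genes moved both ways, 11 of 27 higher and 10 lower. *Ccl2*, the main attractant of monocytes, was 15.2, 18.1, 22.7, 20 and 22.5 in tumour-free and 742, 683, 4032, 738 and 3395 in tumour lungs (log2 6.08 ± 0.51), and its neighbour *Ccl7* was 196, 204, 1011, 396 and 1345 against 13.8 ± 6.05 (log2 5.08 ± 0.56), both highest in replicates 3 and 5. *Cxcl12*, a product of stroma and vessels, fell (4548 ± 494 to 236 ± 123, log2 -4.38 ± 0.26), as did the lymphatic chemokine gene *Ccl21a* (-4.26), which has near-identical copies. Among 17 receptor genes 12 fell and 3 rose, *Ackr1* (log2 1.86 ± 0.41) and *Ccr1* (log2 1.63 ± 0.30) upward. Of 22 cytokine and growth factor genes 5 rose and 10 fell. *Csf3*, the growth factor of neutrophils, was at most 1 read in tumour-free lungs and 25.5, 16.1, 96.6, 16.2 and 19.2 in tumour lungs, highest in replicate 3, and *Hgf*, hepatocyte growth factor, fell (-3.37). Of 15 checkpoint genes 2 rose and 7 fell. *Cd276*, the B7-H3 ligand, rose (145 ± 17.2 to 800.0 ± 201, log2 2.42 ± 0.19), *Tigit* rose from 3.88 ± 2.52 to 17.9 ± 5.71 (log2 2.08 ± 0.43), and *Cd274*, the PD-L1 gene, fell (log2 -0.81 ± 0.27).

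Immediate early genes, which handling of tissue can induce, differed too. Of 20 such genes 11 fell and none rose (median -1.19). *Fos*, a subunit of AP-1, was 6171, 3660.0, 7553, 312 and 3932 in tumour-free lungs, against 390.1, 200.0, 2304, 564 and 170.3 in tumour lungs (log2 -2.71 ± 0.90). Its log2 value was -3.51 without tumour-free replicate 4, -3.30 without tumour replicate 3, and -2.37 and not called without tumour replicate 5. The nuclear receptor gene *Nr4a1* was 3906, 1138, 7872, 1709.8 and 3073 against 197, 257, 333, 808 and 152 (log2 -3.28 ± 0.54). Of 14 genes of the heat shock and cold response 5 rose and 3 fell. The inducible chaperone genes *Hspa1a* (log2 -3.98 ± 0.55) and *Hspa1b* (log2 -2.89 ± 0.55), near-identical copies, fell, while the mitochondrial chaperonin gene *Hspe1* (log2 2.23 ± 0.26) and the cold-inducible gene *Rbm3* (log2 1.72 ± 0.25) rose. Of 16 clock genes 9 fell and 3 rose, with *Npas2* (log2 -4.07 ± 0.50) furthest down and *Cry1* furthest up. The time of day of collection is not given in the labels used here.

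Other genes stood at the far end of the falls. *Scube2*, a secreted protein gene, was 1169, 982, 765, 934 and 801 in tumour-free and 5.11, 2.15, 6.76, 25.7 and 10 in tumour lungs (log2 -6.76 ± 0.46). *Colq*, the collagen tail of acetylcholinesterase (log2 -6.57 ± 0.54), the adhesion protein gene *Astn2* (log2 -6.55 ± 0.65) and the amino acid transporter gene *Slc7a10* (log2 -6.32 ± 0.48) were at most 20, 19 and 17.5 in tumour lungs. *Prelp*, a leucine-rich repeat proteoglycan of the same family as *Dcn* and *Lum*, fell from 7665, 8081, 7724, 8131 and 7514 to 62.3, 82.8, 95.7, 556 and 171 (log2 -5.83 ± 0.48). In these 5 genes replicate 4 was the highest of the tumour lungs.

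Whether the tumour effect differed between MT2 and WT lungs was tested with an interaction term over the 20 libraries of tumour and tumour-free lungs of both genotypes. Limma called 4 of 17927 genes (0.0223%), all lower in MT2 relative to WT, and 1776 had an unadjusted p under 0.05. *Apln*, the apelin gene of sprouting endothelium, fell in MT2 lungs (1126, 1114, 1417, 1048 and 1184 to 215, 157, 408, 242 and 277, log2 -2.24 ± 0.22) and had a log2 value of -0.30 ± 0.15 in WT lungs, a difference of -1.94 ± 0.27 (adjusted p = 0.0088). *Serpinh1* had a log2 value of 1.17 ± 0.12 in WT lungs and 0.18 in MT2 lungs, a difference of -0.99 ± 0.14 (adjusted p = 0.0088). The other 2 were *Fam167a* (-1.59 ± 0.25, adjusted p = 0.023) and the endothelial protocadherin gene *Pcdh12* (-1.85 ± 0.31, adjusted p = 0.032). *Apln* and *Serpinh1* kept their call without any 1 of the 20 libraries, and *Fam167a* lost it in 9 and *Pcdh12* in 13 of these. None of the 4 was called with all 6 intratracheal groups in 1 fit, which adds the rTIMP2-treated tumour lungs of both genotypes.

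The count of genotype differences rose to 49 without replicate 4 of the MT2 tumour lungs (6 higher and 43 lower in MT2 relative to WT). It rose to 55 without replicate 5 (23 higher and 32 lower). In both, 16 genes were called, the 4 above among them. *Timp2* was one of the 16. Its difference was 1.12 ± 0.20 with all libraries (adjusted p = 0.089) and 1.22 without replicate 5 (adjusted p = 0.0077), and it was also called without WT tumour replicate 5 (adjusted p = 0.041). In WT lungs *Timp2* was 10619 ± 519 without and 6900.1 ± 838 with tumour (log2 -0.63 ± 0.11), in MT2 lungs 6105 ± 144 and 8809 ± 2371. The order of the genotypes was thus WT above MT2 in tumour-free lungs, and in tumour lungs the ranges overlapped. *Ccnd1* was another of the 16, with a difference of -0.94 over all libraries (adjusted p = 0.093) and -0.96 without replicate 5 (adjusted p = 0.021). Medians of the lists in MT2 and WT lungs were -3.46 and -2.69 for alveolar type 2 cells, -3.28 and -2.62 for endothelium, -3.13 and -1.52 for T cells and -3.42 and -1.70 for MHC class II. No gene of these 4 lists was called for the difference with all libraries (*H2-Ob*, of MHC class II, had the lowest adjusted p among them, 0.093). *H2-Ob* was, however, one of the 16. Its difference was -2.92 without replicate 4 (limma adjusted p = 0.013) and -2.72 without replicate 5 (limma adjusted p = 0.038).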

How the data were processed

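RNA of 30 lungs of the intratracheal experiment was given as 1 table of normalized counts (a signal, not whole reads), which the authors scaled before it was deposited. The submitters' processing notes name Partek, Bowtie2, STAR, DESeq2 and the build mm10, without roles or versions. Strand of counting is not given in the sources used here, so reads of overlapping and antisense genes may be mixed, and closely similar copies (MHC class I genes, *Hspa1a* and *Hspa1b*, *Ccl21a*) are uncertain. Groups came from sample titles. Low values fell on whole steps of 1 read in 79.4 to 83.1% of cases (tolerance 0.02 of a step, up to 20 steps), too few to recover reads, and the step gave the depth.

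Genes that reached 10 in 5 or more of the 10 libraries were tested (16999 of 26940) with limma 3.58.1 in R 4.3.3 on log2(value + 1), with empirical Bayes trend and robust settings and Benjamini-Hochberg adjustment. *Luc* and *Hmga2* were also tested by two-sided exact permutation over 252 splits. The genotype interaction used 20 libraries. In 56 gene lists (964 genes) and among the largest changes, genes were named by a fixed rule: the first 2 tested and the largest 2 called each way in a list, and the 12 largest rises and falls with a mean of at least 50, from which the text takes those with a known role. Some genes that the rule names are not reported here. The members, lists and rule were chosen with earlier results of these data known. Alternatives covered the pseudocount, filter, scaling, moderation, groups in the fit, the replicate block and each library left out. Those that left out WT libraries, the list counts without 1 library, and the comparison by exon length were added after seeing the data. The fit was checked on simulated data in which few genes changed, so that check does not cover scaling or calls when most genes change.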

Additional observations from a re-analysis of the deposited data

Results flagged for a closer look

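Among the 165 genes named, a single library lay far from the other 4 of its group by Dixon's test in 28 sets of tumour values and in 10 sets of tumour-free values. Chance alone marks about 1 in 20 sets, and the genes were not chosen independently of each other. In tumour replicate 2 the value was 94.6 for *Igf2*. In tumour replicate 3 the values were 1455 for *Ifit1*, 79.2 for *Chek1*, 2872 for *Egln3*, 5229 for *Slc2a1* and 549 for *Isg15*. The same library had 323 for *Ifih1*, 96.6 for *Csf3*, 402 for *Cd274* and 2304 for *Fos*. In tumour replicate 4 the values were 1756 for *Cdh5*, 19 for *Cd3e*, 155 for *Actc1*, 428 for *Loxl1* and 1020.0 for *Mfap4*. The same library had 3428 for *Ace*, 9.51 for *Xcr1*, 8.56 for *Siglech*, 453 for *Cxcl12* and 808 for *Nr4a1*. The same library had 17.5 for *Slc7a10* and 556 for *Prelp*. In tumour replicate 5 the values were 120.2 for *Dlx1*, 32005 for *Spp1*, 40.1 for *Siglecf*, 942 for *Clec4d* and 4043 for *Hspe1*. The same library had 7805 for *Rbm3*. In tumour-free lungs replicate 2 had 0.952 for *Csf3*, replicate 4 had 6608 for *Col3a1*, 1597 for *Mmp2*, 587 for *Mmp9*, 55.5 for *Adamts14* and 682 for *S100a8*, and replicate 5 had 1.88 for *Zic2*, 37984 for *Cyp2f2*, 473 for *Dnah5* and 6054 for *Serpinh1*.

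The tumour effect differed between MT2 and WT lungs by the interaction test in 4 genes, with log2 differences of -1.94 for *Apln*, -1.85 for *Pcdh12*, -1.59 for *Fam167a* and -0.99 for *Serpinh1*.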

How the results depend on the processing

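Over 11 other settings the count of called genes ran from 9445 (filter of 50) to 13886 (no filter), against 11457, and the count beyond 2-fold from 3929 to 5435, against 5005. Leaving out 1 library gave 10879 to 12778 and 4660 to 5476. Of the 11457 calls, 82.3 to 99.8% were called the same way in each of these settings, the lowest share with the filter of 50, which tests fewer genes. The replicate block gave 11105 calls. Same-numbered libraries had correlations of their deviations of 0.00426 to 0.109, and 3 of 5 numbers matched their own number best, so the numbers were not taken as pairs.

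The genotype difference had 0 calls with all 6 intratracheal groups in 1 fit, 2 with the replicate block, and 2 to 55 with 1 library left out (10 without WT tumour replicate 3, 21 without WT tumour replicate 5); the cause was not tested. With the replicate block, *Fam167a* and *Pcdh12* were not called (limma adjusted p = 0.13 for both), and no other call named in the report changed. *Timp2* in MT2 lungs had log2 values of 0.37 to 0.59 with 1 library left out.

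The direction turned in 3 named genes, none of them called then: with 1 library left out *Xist* ran from -0.47 to 0.24 (above 0 without tumour replicate 5), *Slc16a3* from -0.066 to 0.22 (below 0 without tumour-free replicate 1 or tumour replicate 3 or 4) and *Mmp9* from -0.036 to 0.38 (below 0 without tumour-free replicate 2 or tumour replicate 3). *Serpinh1* was called higher in MT2 lungs when libraries were scaled to the same sum (log2 0.27, limma adjusted p = 0.04). Depth limits genes near 0, whose fold changes moved most with the pseudocount: *Dlx1* was 7.79 with 0.5 and 4.596 with 10.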

Other observations

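Among genes that encode no protein, the balance of rises and falls in MT2 lungs varied by class. Long intergenic RNAs had 82 higher and 85 lower of 271, and antisense genes 97 and 88 of 316. Transcribed processed pseudogenes had 37 higher and 11 lower of 70, and bidirectional promoter RNAs 24 and 12 of 57. Of 1351 processed pseudogenes tested, 786 were higher and 138 lower in tumour lungs (median log2 fold change 0.97), against 4180 higher and 5612 lower of 14374 protein-coding genes (median -0.15). Processed pseudogenes are copies of messenger RNA, and the counting could give them reads of their parent genes. By chromosome, the median was highest on Y (4.66, only 7 genes tested), then on chromosome 19 (0.36, 577 genes) and 17 (0.23, 842 genes), and lowest on X (-0.25, 581 genes). In WT lungs the medians of these 4 chromosomes were 5.37, 0.24, 0.15 and -0.22.

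By exon length, the median log2 fold change of protein-coding genes was 0.11, -0.05, -0.20 and -0.37 in 4 equal groups from the shortest to the longest in MT2 lungs, and 0.09, -0.08, -0.18 and -0.32 in WT lungs.

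Without replicate 4 of the MT2 tumour lungs, 43 of the 49 genes that limma called for the difference between genotypes were lower in MT2 relative to WT. These included *Mfap4* (-2.12, adjusted p = 0.0068), the lysyl oxidase genes *Loxl1* (-1.85, adjusted p = 0.026) and *Loxl2* (-1.83, adjusted p = 0.015), *Col5a2* (-1.53, adjusted p = 0.026), *Sparc* (-1.06, adjusted p = 0.026) and *Igf1* (-1.69, adjusted p = 0.004). None of the 6 was called with all libraries (adjusted p from 0.093 to 0.27), and they were chosen after their values were seen. Of the 6, only *Loxl2* was also called without replicate 5 of the MT2 tumour lungs (-1.46, limma adjusted p = 0.027).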
